A study of Mus musculus with 86 samples.

Results

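The 6 mouse genes described here, Usp15, Mib1, Tecpr1, Ift81, Spata13 and Adnp2, are genes in which loss of the RNA-binding protein TDP-43 is known to let a cryptic exon into the mRNA in mouse cells. They were taken by name and are 6 of the 53664 genes with a transcript in the mouse RNA-seq files. RNA was sequenced from the soma (cell body) and neurite fractions of CAD cells, a mouse neuronal line from brain, and of N2A cells, a mouse neuroblastoma line, with 3 libraries for each line, fraction and genotype. In the wild-type and knockout cells of both lines the endogenous Tardbp alleles were inactivated with CRISPR/Cas9, and the TDP-43 of the cells came from 1 integrated HA-tagged transgene that doxycycline switches off. Knockout cells had doxycycline for 48 h, at 2 ug/mL in the sample labels (the paper's methods give another dose), and wild-type cells had none, so loss of TDP-43 and exposure to doxycycline cannot be told apart in these comparisons. The third experiment used CAD cells that keep their endogenous Tardbp and carry 1 integrated transgene for wild-type or Q331K TDP-43, a form with an ALS-associated amino acid change, and there all 12 libraries came from cells given doxycycline to switch the transgene on. By the paper's methods that exposure lasted longer than the 48 h of the knockout cells. The paper reports that the induced transgene lowered expression from the endogenous alleles, so that most TDP-43 in these cells was the transgenic form. The knockout lines were grown from selected clones, and the fractions were obtained by scraping cells grown on porous membranes. The labels do not say that the 3 libraries of a group came from separate cultures, so the p-values measure the spread between these libraries, which may be technical.

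TDP-43 is a mostly nuclear protein that binds RNA at runs of UG and keeps stretches of some introns from being used as exons. When it is lost, such a stretch can be spliced into the mRNA as a cryptic exon, often with an early stop codon or a new 3′ end, and the transcript may then be degraded or cut short. Cryptic exons are not shared between mouse and human genes as a rule and differ between cell types, and loss of TDP-43 from the nucleus is a hallmark of ALS and frontotemporal dementia. The deposited values count reads on annotated transcripts only. A cryptic exon that the annotation lacks was therefore not measured, and what follows gives the level of each gene and of each of its annotated transcripts.

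The libraries of the CAD knockout experiment held 25009904 to 32895542 estimated counts, those of N2A cells 22726534 to 31911030 and those of the transgene experiment 9783050 to 15870647. Levels are given as CPM, counts scaled to the size of the library, after TMM scaling within each experiment. Tardbp fell in knockout cells to 17.5% of wild-type in CAD soma, 27.0% in CAD neurites, 29.1% in N2A soma and 37.7% in N2A neurites, which counts the silenced transgene and the inactivated alleles together. In every group 8 of 10 neuronal markers were above 1 TPM, the deposited abundance per transcript length, and Nefl and Nefm were below it. Summed over 8 glial and immune markers, the level was 1.53 to 16.5 TPM over all libraries. The sum of 4 fibroblast markers was 0.265 to 3.23 TPM in the knockout experiments and 7.43 to 27.3 TPM in the transgene experiment. Their part in the results was not tested.

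In CAD cells without TDP-43, 3 of the 6 genes were lower in both fractions, 2 were higher in both, and Spata13 was barely expressed. Usp15, Mib1 and Tecpr1 fell to between 19.0% and 47.4% of their wild-type levels in the main fit. With counts scaled by transcript length the falls of Tecpr1 in both fractions and of Usp15 in soma were smaller. Ift81 rose to 201% of wild-type in soma and 213% in neurites in the main fit, and Adnp2 to 127% and 120%. Over the alternative fits the log2 fold change of Ift81 was as small as 0.70 in soma and 0.82 in neurites. In N2A cells Tecpr1 alone passed the test, and it was lower in both fractions. Calls are at an adjusted p under 0.01 in edgeR's quasi-likelihood test with Benjamini-Hochberg adjustment over all genes tested. In CAD soma 11.6% of the 17343 genes tested were lower and 11.2% higher, and in CAD neurites 13.5% were lower and 11.8% higher. These shares are the background against which the counts of 3 lower and 2 higher of 6 are to be read.

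Usp15 encodes a deubiquitinase that removes ubiquitin from regulators of growth factor and innate immune signalling. Its level in CAD soma was 143, 153 and 150.3 CPM in the wild-type libraries and 75.9, 67.9 and 67.6 CPM in the knockout libraries. In CAD neurites it was 172, 182 and 190.2 CPM in wild-type and 58.9, 60.6 and 56.5 CPM in knockout. The lowest wild-type library stood well above the highest knockout library in both fractions. The log2 fold change was -1.08 (SE 0.0637, adjusted p = 3.6e-09, edgeR quasi-likelihood) in soma and -1.63 (SE 0.0652, adjusted p = 4.0e-11) in neurites. With counts scaled by transcript length the fall in soma was smaller, at -0.78, and was still called. In neurites the smallest fall over the alternative fits was -1.38, and it was called as well.

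Mib1 encodes a ubiquitin ligase that acts on Notch ligands in the cell that sends the signal. In CAD soma the wild-type libraries had 125, 113 and 113 CPM and the knockout libraries 33.2, 30.1 and 30.1 CPM. In CAD neurites the values were 97.3, 95.9 and 93.1 CPM against 22.9, 22.8 and 26.0 CPM. Mib1 thus lost about as much in neurites as in soma, with log2 fold changes of -1.91 (SE 0.0677, adjusted p = 1.9e-11, edgeR quasi-likelihood) in soma and -1.997 (SE 0.0703, adjusted p = 7.7e-12) in neurites.

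Tecpr1 encodes a protein that helps autophagosomes fuse with lysosomes. It had 43.6, 44.6 and 47.2 CPM in wild-type CAD soma and 16.97, 13.4 and 12.2 CPM in knockout soma. In CAD neurites it had 31.7, 33.4 and 31.6 CPM in wild-type libraries and 5.28, 5.09 and 7.96 CPM in knockout libraries. The groups did not overlap in either fraction. The log2 fold changes were -1.67 (SE 0.129, adjusted p = 6.7e-08, edgeR quasi-likelihood) in soma and -2.40 (SE 0.145, adjusted p = 3.9e-09) in neurites. With counts scaled by transcript length the falls of Tecpr1 were smaller, at -1.02 and -1.64, and both were still called.

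Ift81 encodes a tubulin-binding subunit of the IFT-B complex, which carries cargo along the axoneme of the primary cilium. It moved the other way. CAD soma held 11.9, 13.1 and 13.4 CPM in wild-type libraries and 24.3, 28.4 and 24.7 CPM in knockout libraries. CAD neurites held 16.1, 16.97 and 15.6 CPM against 34.9, 34.9 and 33.7 CPM. Every knockout library lay above every wild-type library of its fraction, with log2 fold changes of 1.01 (SE 0.0792, adjusted p = 7.9e-08, edgeR quasi-likelihood) and 1.09 (SE 0.0803, adjusted p = 3.9e-08). The smallest rises over the 13 alternative fits were 0.70 in soma and 0.82 in neurites, and both were still called.

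Adnp2 encodes a zinc finger and homeobox protein of the nucleus, related to the neuroprotective protein ADNP. In CAD soma it was at 41.8, 42.0 and 45.6 CPM in wild-type and 54.8, 54.6 and 55.3 CPM in knockout libraries. In CAD neurites it was at 35.6, 33.7 and 36.1 CPM and at 41.7, 41.2 and 43.7 CPM. The rise was small but larger than the spread, with log2 fold changes of 0.35 (SE 0.0573, adjusted p = 0.000195, edgeR quasi-likelihood) in soma and 0.27 (SE 0.0596, adjusted p = 0.00226) in neurites. The call in neurites was lost without wild-type replicate 2 (adjusted p = 0.0173), without knockout replicate 3 (0.0160) and without a filter on low counts (0.0340).

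Spata13 encodes a guanine nucleotide exchange factor of the small GTPases Rac1 and Cdc42. It had 31.0 to 33.0 estimated counts in the wild-type CAD soma libraries and 24.004 to 32.7 in knockout soma, or 0.865 and 0.833 CPM on average. The log2 fold change was -0.06 with a 95% interval of -0.75 to 0.63 in soma and 0.21 with an interval of -0.59 to 1.01 in neurites. Changes of up to that size in either direction were not detectable at this depth. In N2A cells the gene had at most 3 counts in any library and, like in the transgene experiment, did not pass the filter on low counts.

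**Figure D1:**
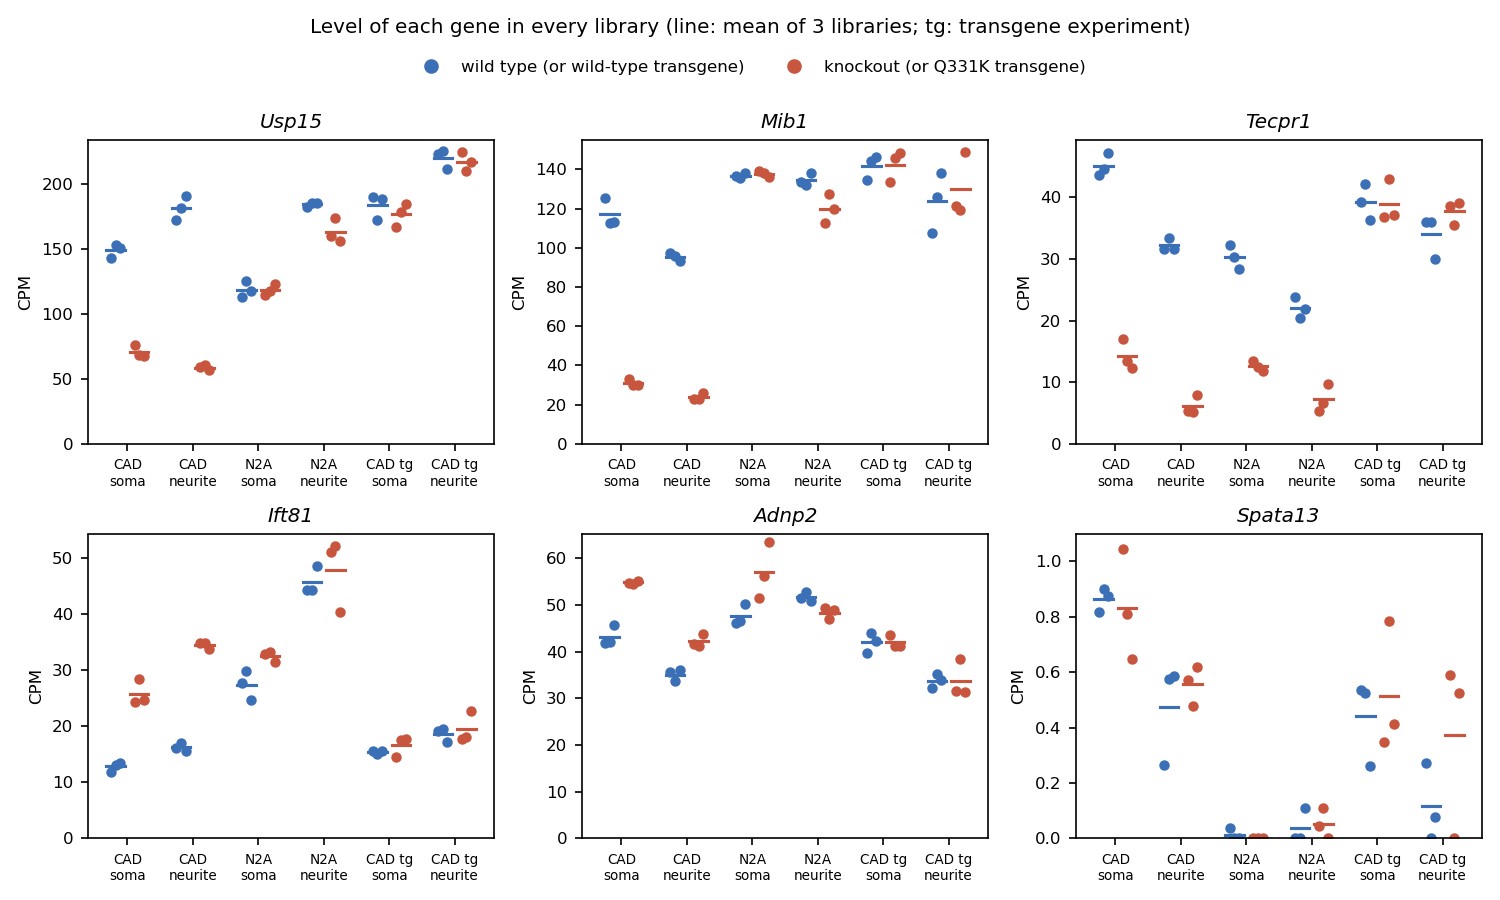
Level of each gene in CPM (vertical axis from 0, TMM-scaled within each experiment) in every library of the soma and neurite groups of CAD cells, N2A cells and the CAD transgene experiment (tg). Points are libraries and lines are means of 3. Knockout points of Usp15 and Mib1 lie far below wild-type in CAD cells and close to it in N2A cells, those of Tecpr1 lie below wild-type in both lines, and those of Ift81 lie above it in CAD cells.

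In N2A cells 5 of the 6 genes could be tested among 17912 genes, of which 5.15% were lower and 10.9% higher in knockout soma and 5.1% lower and 6.48% higher in knockout neurites. Tecpr1 was the gene that was called. Its soma level was 32.2, 30.3 and 28.4 CPM in wild-type and 13.4, 12.5 and 11.8 CPM in knockout libraries, and its neurite level was 23.8, 20.4 and 21.8 CPM against 5.40, 6.57 and 9.63 CPM. The fall came to -1.27 on the log2 scale (SE 0.142, adjusted p = 1.37e-05, edgeR quasi-likelihood) in soma and -1.60 (SE 0.150, adjusted p = 2.9e-06) in neurites. It was called in all 13 alternative fits in each fraction.

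Usp15 and Mib1, which fell in CAD cells, were not called in N2A cells. Usp15 had 113, 125 and 118 CPM in wild-type N2A soma and 114, 117 and 123 CPM in knockout soma, a log2 fold change of -0.00 with a 95% interval of -0.15 to 0.14. In N2A neurites the values were 182, 185 and 185 CPM against 160, 173 and 156 CPM, which do not overlap. The log2 fold change there of -0.18 (95% interval -0.32 to -0.03) missed the threshold (adjusted p = 0.0876, edgeR quasi-likelihood). Mib1 had log2 fold changes of 0.01 in soma (95% interval -0.13 to 0.15) and -0.17 in neurites (95% interval -0.30 to -0.03, adjusted p = 0.0866). At an unadjusted p under 0.05, 3 of the 5 members were lower in N2A neurites and 0 higher. Of all 17912 genes, 5792 were under it in either direction. Ift81 had a log2 fold change of 0.25 (adjusted p = 0.0748) in N2A soma and 0.06 in neurites, and Adnp2 of 0.26 (adjusted p = 0.0231) and -0.10. The value of Adnp2 in soma passed the threshold in DESeq2 (adjusted p = 0.00465), without knockout replicate 1 (0.00133) and, at 0.22, in a fit of the N2A soma libraries alone with the replicate number as a block (0.00974).

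Whether the genes changed differently in the 2 lines was tested in a fit of all 24 libraries of CAD and N2A cells, as the change in CAD cells minus the change in N2A cells. Of 19700 genes, 10.5% differed in soma and 9.18% in neurites. Mib1 differed by -1.9995 in soma (SE 0.0898, adjusted p = 4.3e-13, edgeR quasi-likelihood) and -1.88 in neurites (SE 0.0911, adjusted p = 1.1e-12). Usp15 differed by -1.15 (SE 0.0963, adjusted p = 1.1e-08) and -1.51 (SE 0.0967, adjusted p = 1.0e-10). The falls of both genes were larger in CAD cells by about as much as the falls themselves. Ift81 rose more in CAD cells, by 0.68 in soma (adjusted p = 0.000849, edgeR quasi-likelihood) and 0.97 in neurites (adjusted p = 1.2e-05).

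For Tecpr1 the difference between the lines was smaller. It was -0.48 in soma (95% interval -0.89 to -0.07, adjusted p = 0.0915, edgeR quasi-likelihood) and -0.85 in neurites (95% interval -1.30 to -0.40, adjusted p = 0.00777). The difference in neurites lost the call when any of 8 libraries was left out, which were the 3 wild-type and knockout replicates 1 and 2 of CAD neurites, wild-type replicates 2 and 3 of N2A neurites and knockout replicate 3 of N2A neurites, with the highest adjusted p (0.0486) without the last of these. Adnp2 differed by 0.01 in soma and 0.31 in neurites (adjusted p = 0.0578), and neither passed in edgeR, while DESeq2 gave 0.33 in neurites, which passed (adjusted p = 0.00798). The lines were 1 set of clones each, and clone and line cannot be told apart.

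**Figure D2:**
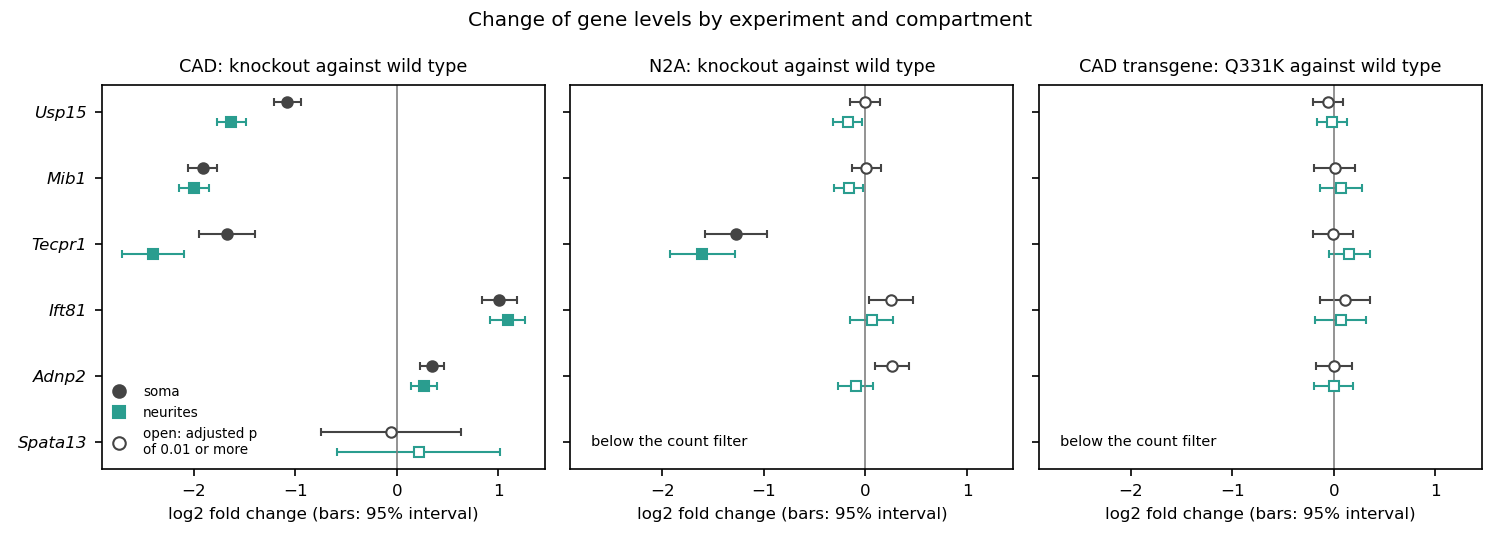
Log2 fold change of each gene (horizontal axis, with 95% intervals) in soma (circles) and neurites (squares), for CAD and N2A knockout against wild-type and for the Q331K against the wild-type transgene. Filled symbols passed an adjusted p of 0.01. The values of Usp15, Mib1, Ift81 and, less far, Adnp2 stand away from 0 in the CAD panel, those of Tecpr1 in the CAD and N2A panels and none in the transgene panel.

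In the transgene experiment no member was called, and at the threshold of 0.01 no gene of 13940 (0%) was called in either fraction by edgeR's quasi-likelihood test. At an unadjusted p under 0.05 the fit gave 995 genes in soma and 1372 in neurites, and none of them was a member. DESeq2 called 0 genes in soma and 10 in neurites. The 5 members tested had log2 fold changes of -0.05 to 0.11 in soma and -0.02 to 0.15 in neurites, Q331K against wild-type transgene. The 95% intervals of Usp15 were -0.20 to 0.09 in soma and -0.16 to 0.13 in neurites, and those of Tecpr1 were -0.20 to 0.19 and -0.05 to 0.36. The falls of these genes in the CAD knockout lie outside these intervals.

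All 12 libraries of that experiment came from CAD cells given doxycycline, with their Tardbp alleles in place. By the paper, most TDP-43 in them was nonetheless the wild-type or Q331K form of the transgene. The ranges below pool the libraries of both forms. Usp15 had 167 to 189.5 CPM in these 6 soma libraries (median 182) and 209.9 to 225 CPM in the 6 neurite libraries (median 219.7). Mib1 had 133 to 148 CPM (median 145) in soma and 108 to 149 CPM (median 124) in neurites, and Tecpr1 36.2 to 42.9 CPM (median 38.1) and 29.99 to 39.1 CPM (median 35.97). Ift81 had 14.5 to 17.8 CPM (median 15.6) in soma and 17.2 to 22.8 CPM (median 18.6) in neurites. For these 4 genes the values did not overlap with those of the CAD knockout libraries. Nor did those of Adnp2, at 39.7 to 44.1 CPM in soma and 31.3 to 38.4 CPM in neurites. Except for Tecpr1 in neurites, the values of the 4 genes also missed those of the wild-type libraries of the CAD knockout experiment. Usp15, Mib1 and Ift81 lay above that wild-type in both fractions, and Tecpr1 lay below it in soma. How many of all genes show such gaps was not counted. The experiments were scaled separately and differ in clone, cassette and time on doxycycline, and no test was made between them.

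The Localization Ratio (LR) is the log2 of the abundance of an RNA in neurites relative to that in soma. Usp15 was the member with a called LR change in CAD knockout cells, at -0.55 (SE 0.0899, adjusted p = 0.00499, edgeR quasi-likelihood). Of all genes tested in CAD cells, 0.208% had a lower LR and 0.225% a higher one. The call was lost in 11 of the 12 fits that left out a library, with adjusted p up to 0.0256, and held in the fit without wild-type soma replicate 3 (0.00967). Tecpr1 had the larger LR change of -0.73 (SE 0.192, adjusted p = 0.108), which passed in DESeq2 (0.00651), without a filter on low counts (0.00050) and without knockout neurite replicate 3 (0.00709). Mib1, Ift81 and Adnp2 had LR changes of -0.08, 0.08 and -0.08, with 95% intervals inside -0.29 to 0.32. In N2A cells no member had a called LR change by edgeR or DESeq2, where edgeR called 0.1% of all genes, and 1 of 5, Adnp2, was below an unadjusted p of 0.05, with a change of -0.36 (adjusted p = 0.0577) that passed without knockout soma replicate 1 (0.00987).

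In wild-type cells the members differed in where their RNA was found. Over all genes tested, LR differed from 0 for 41.4% in CAD cells, 59.2% in N2A cells and 27.5% in the transgene experiment. After TMM scaling, Usp15 RNA was higher in neurites in all 3, with LRs of 0.29 in CAD cells (adjusted p = 0.00111, edgeR quasi-likelihood), 0.64 in N2A cells (adjusted p = 9.6e-07) and 0.26 with the wild-type transgene (adjusted p = 0.00711). Ift81 was higher in neurites of CAD cells (0.34, adjusted p = 0.00248) and N2A cells (0.74, adjusted p = 9.5e-06). The direction for these genes depends on the scaling between fractions. Before TMM scaling, wild-type CAD cells had 134, 132 and 158 CPM of Usp15 in neurites and 181, 190 and 183 CPM in soma. Ift81 was at 12.5, 12.3 and 13.0 CPM against 15.1, 16.3 and 16.3 CPM. Usp15 was also lower in neurites with the wild-type transgene before scaling, while in N2A cells both genes stayed higher. In mean TPM both were lower in neurites in all 3. Tecpr1 was lower in neurites of CAD (-0.49, adjusted p = 0.00369) and N2A cells (-0.46, adjusted p = 0.00743). Adnp2 was lower in neurites of CAD cells (-0.30, adjusted p = 0.000495) and with the wild-type transgene (-0.31, adjusted p = 0.00899), and Mib1 in those of CAD cells (-0.30, adjusted p = 0.00112).

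Levels of different genes can be set side by side in TPM, which is per transcript length. In wild-type CAD soma Usp15 was highest with 88.2 ± 17.4 TPM (SD, n = 3), followed by Mib1 with 27.4 ± 2.96 TPM, Tecpr1 with 21.8 ± 1.51 TPM, Adnp2 with 14.96 ± 2.95 TPM, Ift81 with 9.68 ± 3.08 TPM and Spata13 with 0.252 ± 0.0566 TPM. The ranges of Adnp2 and Ift81 overlapped, and those of the other neighbours in this order did not. In wild-type N2A soma the order was Usp15 (66.1 ± 4.88 TPM, n = 3), Mib1 (29.1 ± 1.40 TPM), Tecpr1 (19.5 ± 2.01 TPM), Ift81 (18.9 ± 2.16 TPM), Adnp2 (16.3 ± 1.92 TPM) and Spata13 (0.00311 ± 0.00538 TPM), and the ranges of Tecpr1, Ift81 and Adnp2 overlapped from neighbour to neighbour. Between the lines, on the CPM scale of the fit of 24 libraries, in which 51.2% of genes differed in wild-type soma, wild-type CAD soma had more Usp15 (log2 difference 0.55, adjusted p = 1.6e-07, edgeR quasi-likelihood) and Tecpr1 (0.79, adjusted p = 1.7e-05) than wild-type N2A soma and less Ift81 (-0.87, adjusted p = 2.7e-08). Mib1 differed by -0.01, with a 95% interval of -0.13 to 0.12.

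The annotation used (GENCODE vM21, GRCm38) holds 48 transcripts of the 6 genes that are also in the files, and 29 of them passed the filter on low counts in CAD cells. In CAD soma 6 of the 29 were lower and 3 higher, against 1.89% lower and 2.26% higher of 49076 transcripts tested. In CAD neurites 6 were lower and 2 higher, against 2.82% and 2.65%. In each fraction 4 of the 6 lower transcripts were of Usp15, 1 of Tecpr1 and 1 of Mib1. Transcripts of a gene share exons and reads, so these counts largely repeat the falls of the genes. Usage, the count of a transcript relative to that of its gene, was tested for 27 of the 29 transcripts. Among the 27, 2 were lower and 1 higher in soma and 1 lower and 4 higher in neurites. Over 41801 transcripts, usage was lower for 0.498% and higher for 0.498% in soma, and lower for 0.739% and higher for 0.777% in neurites. Salmon divides reads among transcripts that share exons, and the error of that division is not in the files, so values of single transcripts are less certain than those of genes. Usp15 also shares 169 exonic bases with the antisense gene Gm4129 and 96 with the miRNA gene Gm27920, and reads there may count for either.

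Usp15 lies on the minus strand of chromosome 10 (GRCm38, chr10:123105006-123196995), spans 92.0 kb and has 11 annotated transcripts, of which 3 are protein coding and 8 are annotated as retained intron. Usp15-201, the coding transcript with 21 exons, joins exon 5 to exon 6. Usp15-202 is a short transcript of 6 exons that skips exon 6 and ends in an exon inside the gene (chr10:123151518-123153127), 43.87 kb from the gene start, with 842 bases found in no other Usp15 transcript. Usp15-210 keeps exon 6 and joins it to the same splice site, and Usp15-205 reads from exon 6 on into the intron. The junctions are printed because these are the places at which Usp15-202, which rose in CAD knockout cells, parts from Usp15-201, which fell, and from Usp15-205 and Usp15-210, neither of which was called for its level. Each line shows the spliced sequence 5′ to 3′ on the gene's strand, with the part after the junction or the end of exon 6 in capitals.
Usp15-201, exon 5 to exon 6: ctataccaaggacagGTGTTAGTGATAGAG
Usp15-202, exon 5 to its last exon: ctataccaaggacagGTCCCCAGGTGCATC
Usp15-210, exon 6 to its last exon: tccctctactcctaaGTCCCCAGGTGCATC
Usp15-205, exon 6 into intron 6: tccctctactcctaaGTAAGTGCTCCTCCT
The lower-case bases of the first pair are at chr10:123168227-123168241 and those of the second pair at chr10:123163593-123163607. The capitals are at chr10:123163640-123163654 for Usp15-201, chr10:123153113-123153127 for Usp15-202 and Usp15-210, and chr10:123163578-123163592 for Usp15-205, all from the GENCODE transcript sequences.

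Usp15-202 rose in CAD knockout cells while its gene fell. Usp15-210, which joins exon 6 to the same splice site, did not pass, with log2 fold changes of -1.52 in soma (adjusted p = 0.0513, edgeR quasi-likelihood) and -0.87 in neurites (adjusted p = 0.232). In CAD soma Usp15-202 had 2.37, 1.97 and 1.49 CPM in wild-type libraries and 10.4, 7.05 and 9.04 CPM in knockout libraries. In CAD neurites it had 0.506, 0.571 and 0.753 CPM against 5.74, 4.49 and 4.81 CPM. Knockout and wild-type libraries did not overlap in either fraction. The log2 fold changes were 2.18 (SE 0.244, adjusted p = 0.0003, edgeR quasi-likelihood) and 3.03 (SE 0.263, adjusted p = 4.9e-05), and usage was higher in both (adjusted p = 0.000119 and 1.3e-05). Of the TPM of the gene, Usp15-202 made up 2.17% ± 0.587 (SD, n = 3) in wild-type and 16.8% ± 2.71 in knockout soma, and 0.486% ± 0.0749 and 10.4% ± 1.41 in neurites.

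In N2A cells Usp15-202 had 0.957 to 1.96 CPM in wild-type soma and 0.681 to 1.45 CPM in knockout soma, and its share was 2.10% ± 0.851 (SD, n = 3) and 1.73% ± 0.572. In N2A neurites the shares were 0.494% and 0.495%. The log2 fold changes were -0.34 (95% interval -1.35 to 0.66) and -0.24 (95% interval -1.30 to 0.81), and neither was called. The shares of the wild-type and knockout libraries of N2A cells overlapped with those of wild-type CAD cells, and those of CAD knockout libraries lay above all of them in the same fraction. The difference between the lines was not tested for single transcripts.

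Of the 7 tested Usp15 transcripts that carry exons beyond the site of Usp15-202, 4 fell in CAD cells. The other 3 were not called, with log2 fold changes in soma and neurites of -0.02 and -0.23 for Usp15-203, -1.07 and -1.50 for Usp15-204 and -0.15 and 0.29 for Usp15-206. Usp15-201 had 59.4, 58.5 and 66.6 CPM in wild-type CAD soma and 15.6, 14.7 and 17.1 CPM in knockout soma, a log2 fold change of -1.96 (SE 0.0976, adjusted p = 1.9e-06, edgeR quasi-likelihood), with lower usage (adjusted p = 0.000528). In CAD neurites its log2 fold change was -2.09 (SE 0.0985). Usp15-209, with 17 exons, had 12.7, 21.8 and 13.9 CPM in wild-type soma and 0.262, 0 and 0.208 CPM in knockout soma, and in neurites 35.8, 40.7 and 35.2 CPM against 0 in all 3 knockout libraries. Its usage was lower in soma (adjusted p = 0.00407) and neurites (adjusted p = 0.00119), but the call in soma was lost in 5 of 6 fits that left out a library and held without knockout replicate 2. With the replicate number as a block neither was called (adjusted p = 0.0289 in soma and 0.0113 in neurites, edgeR quasi-likelihood).

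Usp15-208, which covers the 3′ part of the gene, fell by 1.17 on the log2 scale in soma and by 1.73 in neurites, and Usp15-211, the longest coding transcript, by 0.74 and 1.67. The fall of Usp15-211 in soma passed in the fit of all libraries (adjusted p = 0.00698, edgeR quasi-likelihood) and in none of the 6 fits that left out a library of the soma groups (adjusted p 0.0180 to 0.0411). Usp15-211 alone among the coding transcripts has an exon that starts at the splice site used by Usp15-202 and ends within it (chr10:123153041-123153127). Usp15-205 and Usp15-206 had log2 fold changes of 0.70 and -0.15 in soma and 0.53 and 0.29 in neurites, none of which was called. Their usage was higher in CAD neurites, with adjusted p of 0.00576 and 0.000484. For Usp15-205 the call was lost in 5 of 6 fits that left out a library and held without wild-type replicate 1. In N2A cells none of the 10 Usp15 transcripts tested was called for level or usage by edgeR. Usp15-211 came nearest, with log2 fold changes of 0.63 in soma (adjusted p = 0.0113) and 0.54 in neurites (adjusted p = 0.0345, usage 0.0327), and DESeq2 called it higher in both fractions.

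**Figure D3:**
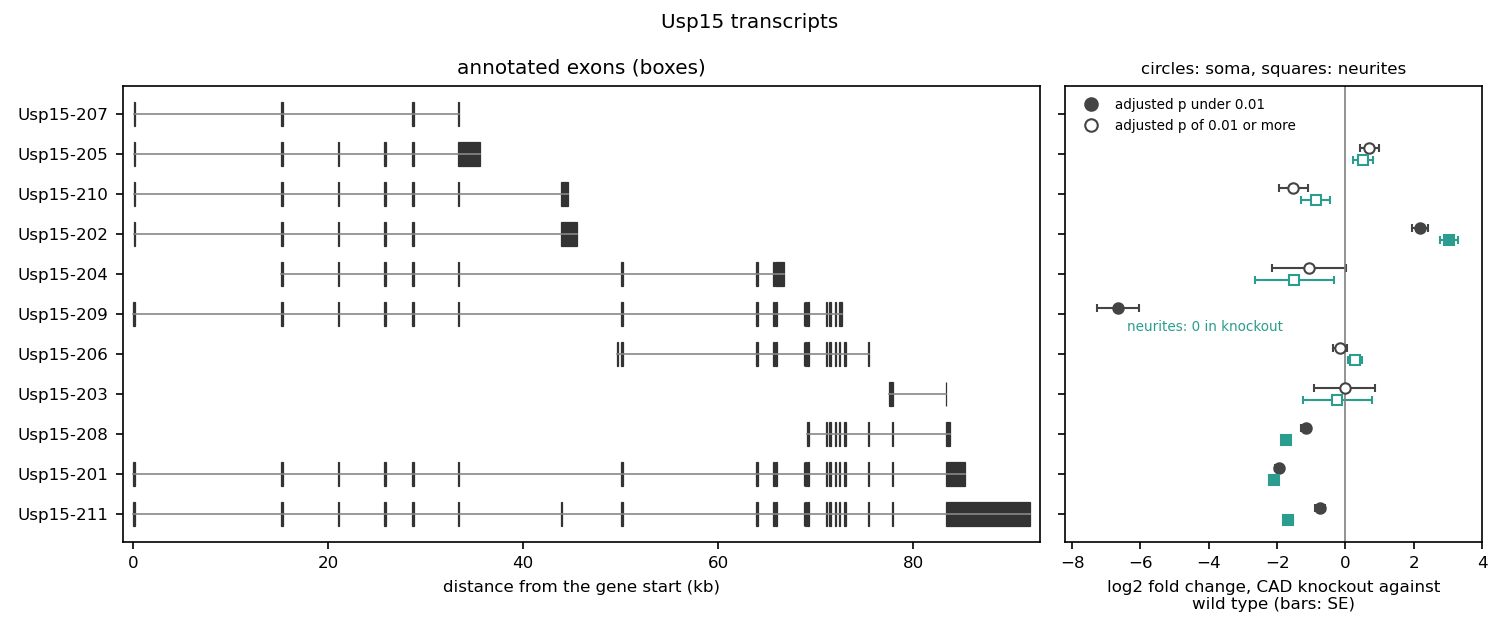
Annotated exons of the 11 Usp15 transcripts (left, boxes, distance from the gene start in kb) beside the log2 fold change of each in CAD knockout against wild-type cells (right, bars are SE, circles soma, squares neurites, filled at an adjusted p under 0.01). Usp15-202, which ends 45.48 kb into the gene, lies to the right of 0 and the full-length Usp15-201 to the left, and Usp15-207 was not tested.

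Tecpr1 lies on the minus strand of chromosome 5 (chr5:144194442-144223615) and has 12 annotated transcripts, of which Tecpr1-201 with 25 exons is the protein coding one. Tecpr1-201 had 31.5, 33.5 and 36.1 CPM in wild-type CAD soma and 7.22, 9.15 and 7.53 CPM in knockout soma, and 31.0, 33.5 and 32.4 CPM against 3.81, 4.10 and 6.08 CPM in neurites. It fell by 2.08 in soma and by 2.79 in neurites on the log2 scale, somewhat more than the gene. Its lower usage was not called in either fraction (adjusted p = 0.214 in soma and 0.152 in neurites, edgeR quasi-likelihood). In N2A cells Tecpr1-201 had 19.1, 19.3 and 22.6 CPM against 7.67, 9.28 and 7.40 CPM in soma and 24.4, 20.9 and 22.3 CPM against 3.03, 5.52 and 7.23 CPM in neurites. The log2 fold changes were -1.32 (adjusted p = 0.00931, edgeR quasi-likelihood) and -2.10 (adjusted p = 0.00118), and the first was lost in all 6 fits that left out a library (adjusted p 0.0329 to 0.0545). With the replicate number as a block it was lost too, with an adjusted p of 0.0179 in the fit of all N2A libraries and 0.0338 in that of the soma libraries. Of 26 member transcripts tested in N2A cells, it was the one called by edgeR, where 0.43% of 49496 were lower in soma and 0.784% in neurites. None of 25 was called for usage in N2A cells, against 0.404% of all transcripts tested in soma and 0.389% in neurites, though 5 in soma and 7 in neurites had an unadjusted p under 0.05. In data simulated from the N2A soma libraries, the usage test found 1 of 100 changes of 2-fold and 34 of 99 of 4-fold. The missing calls therefore do not show that usage was unchanged.

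Tecpr1-205, annotated as a retained intron, ends 14.14 kb into the gene. Its level gave no call in CAD cells (log2 fold changes of 0.33 in soma and 0.71 in neurites) while the gene fell. It had 1.54, 1.31 and 0.902 CPM in wild-type CAD soma and 2.12, 1.48 and 1.12 CPM in knockout soma, and 0.460, 0.476 and 0.832 CPM against 0.745, 1.07 and 1.10 CPM in neurites. Its share of the gene's TPM went from 3.32% ± 0.588 (SD, n = 3) to 8.60% ± 2.43 in soma and from 2.58% ± 0.995 to 13.7% ± 4.80 in neurites, with higher usage in neurites (adjusted p = 0.00144, edgeR quasi-likelihood) and a value that missed the threshold in soma (0.0179). In N2A neurites the share was 1.83% ± 0.798 in wild-type and 11.1% ± 3.72 in knockout (usage adjusted p = 0.0207). In N2A soma neither the usage of Tecpr1-205 (adjusted p = 0.227, edgeR quasi-likelihood) nor its level (log2 fold change 0.07) was called. The shares of the knockout libraries lay above those of wild-type in both fractions of both lines. How many of all transcripts show this was not counted. Tecpr1-204, a transcript of 2 exons that reads from exon 2 into intron 2, runs into a stretch of TG repeats there and is shown beside the coding transcript.
Tecpr1-201, exon 2 to exon 3: tgagaatcagCGTTGGAACCCCATGGGAGG
Tecpr1-204, exon 2 into intron 2: tgagaatcagGTAGTGTTTTGTGTGTGTGT
The capitals are the first bases of exon 3 (chr5:144217389-144217408) and of intron 2 (chr5:144218494-144218513), and the lower-case bases are the end of exon 2 (chr5:144218514-144218523). Tecpr1-204 had at most 0.424 CPM in any library of CAD or N2A cells in the knockout experiments and did not pass the filter.

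**Figure D4:**
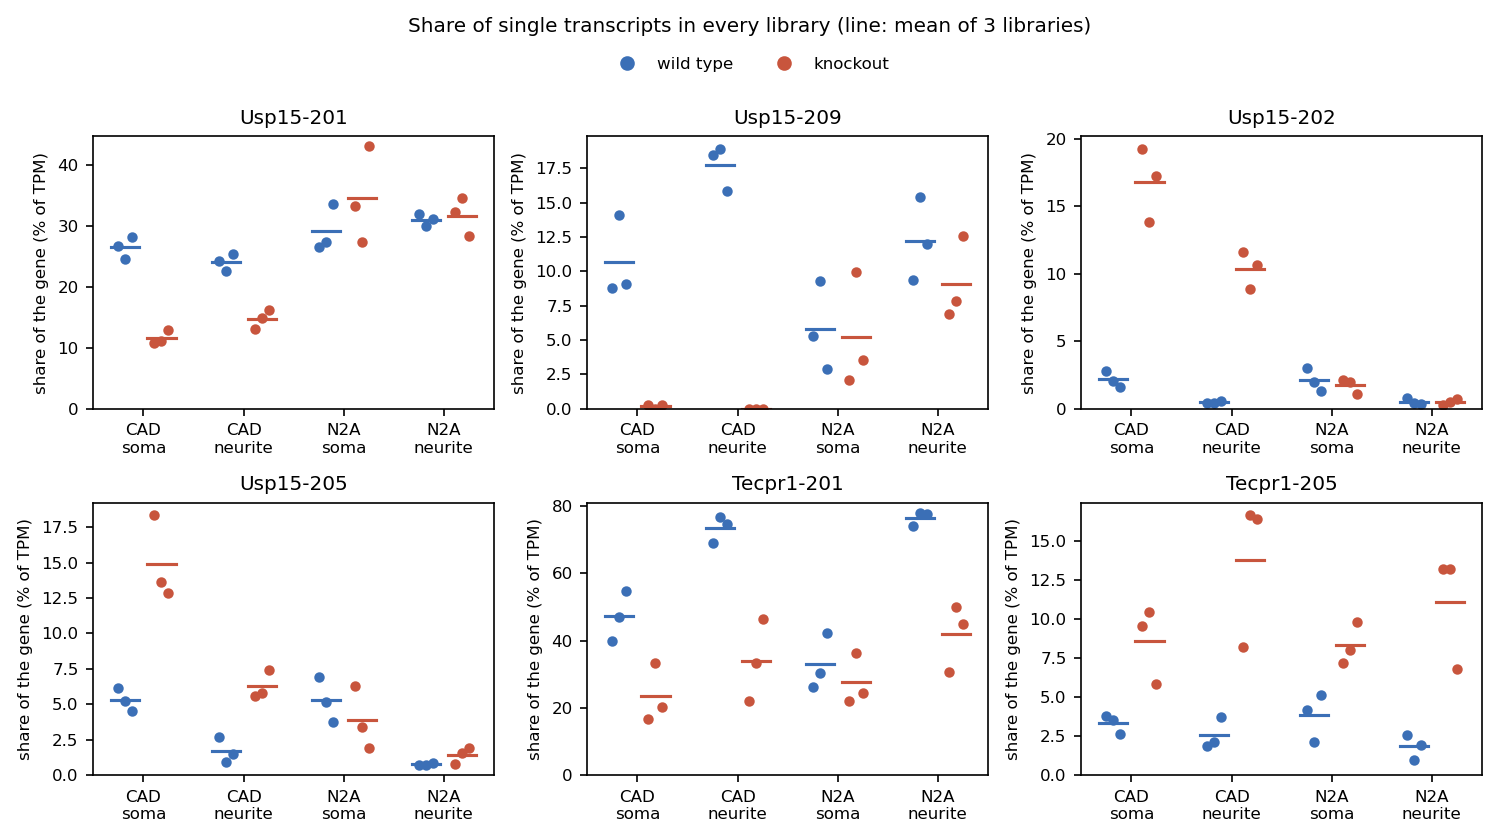
Share of 6 Usp15 and Tecpr1 transcripts in the TPM of their gene (vertical axis in %, from 0) in every library of CAD and N2A cells. Points are libraries and lines are means of 3. The knockout points of Usp15-202 stand above wild-type and those of Usp15-201 and Usp15-209 below it in CAD cells, and those of Tecpr1-205 stand above wild-type in both lines.

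Mib1 (chromosome 18, plus strand) has 5 transcripts in the files, and Mib1-201 made up 81.6% ± 3.85 (SD, n = 3) of the gene's TPM in wild-type and 78.2% ± 6.88 in knockout CAD soma. Mib1-201 fell by 1.95 in soma and by 2.01 in neurites on the log2 scale, with no called change of usage (adjusted p = 0.888 and 0.945, edgeR quasi-likelihood). Mib1-202, at -1.95 and -1.90, missed the threshold (adjusted p = 0.0124 and 0.0121). Ift81-201 (chr5:122550204-122614518, minus strand), the main of 9 Ift81 transcripts, rose by 1.16 and 1.20 and made up 60.6% ± 10.2 (n = 3) of the gene in wild-type and 80.7% ± 3.51 in knockout soma, without a called change of usage (adjusted p = 0.341 in soma and 0.366 in neurites). Ift81-207, annotated as a retained intron, had 0.276, 1.76 and 0.912 CPM in wild-type CAD neurites and 0 in all 3 knockout libraries, which missed the threshold for level (adjusted p = 0.0275) and usage (0.0421). In N2A soma it had 1.54, 0.565 and 0.319 CPM in wild-type and 0 in all 3 knockout libraries (adjusted p = 0.0302, edgeR quasi-likelihood). Adnp2 (chromosome 18, minus strand) has 1 transcript. It was called in soma (log2 fold change 0.36, adjusted p = 0.00296), not in neurites (adjusted p = 0.0124), and the call in soma was lost without wild-type replicate 1 or 2 or knockout replicate 2 or 3 (highest adjusted p 0.0276). Of the 10 transcripts of Spata13 (chr14:60634001-60764556, plus strand), Spata13-210 alone passed the filter in CAD cells, at -0.07 in soma and 0.31 in neurites.

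In the transgene experiment 20 member transcripts were tested and none was called for level or usage by edgeR's quasi-likelihood test, with 1 of 20 at an unadjusted p under 0.05 for level in neurites and 0 in soma. DESeq2 called none for level. In data simulated from the soma libraries of this experiment, the usage test found 4 of 96 changes of 2-fold and 13 of 93 of 4-fold. The background was 0.00288% of 34743 transcripts in soma and 0.023% in neurites for levels, and 0.0239% of 29230 in soma and 0.0342% in neurites for usage.

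Since TDP-43 binds runs of UG, the annotated spliced transcripts were searched for at least 10 TG in a row on the transcript strand. Such a run was found in 4 of the 6 genes, and in 1433 of the 21921 protein-coding genes (6.5%). A run of at least 6 TG was found in the same 4 genes and in 2403 genes (11.0%). The longest was 50 bases in the 3′ UTR of Mib1, followed by 48 bases in Usp15-211, 46 bases in the 3′ UTR of Spata13 and 35 bases in Tecpr1-204. In Tecpr1-204 the run starts 10 bases into intron 2 of Tecpr1-201. The run of Usp15-211 lies beyond the end of Usp15-201 (chr10:123108591-123108638), and its start is shown with the first TG bases in capitals.
Usp15-211, start of its longest TG run: tatatctcTGTGTGTGTGTGTGTGTGTGTG
Adnp2 and Ift81 have no such run in their annotated transcripts. Adnp2 has 1 annotated transcript, while Usp15 has 11 and Tecpr1 12, so the sequence searched differed between genes. Whether a run bears on the change of a gene was not tested. Introns outside annotated transcripts were not searched, and a run is a description of the sequence, not a site.

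Genes linked to the members by family, complex or pathway were taken from 4 lists, whose counts stand beside shares of all genes of 11.2% higher and 11.6% lower in CAD soma, 11.8% and 13.5% in CAD neurites, 10.9% and 5.15% in N2A soma and 6.48% and 5.1% in N2A neurites. In CAD soma none of 9 paralogs and partners of the members (Adnp, Usp4, Usp11, Mib2, Tecpr2 and others) was called, and in CAD neurites 1 was, Atg12, a ubiquitin-like protein of autophagy whose conjugate Tecpr1 binds, at 0.40 (adjusted p = 0.00134, edgeR quasi-likelihood). In N2A cells 0 were called in soma and 2 in neurites, Apc at 1.09 and Arhgef4 at 0.58, both higher. Apc binds Spata13 and Arhgef4 is its relative. The median log2 fold change of the list was 0.06 in CAD soma and -0.02 in CAD neurites, where that of all genes was 0.00.

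Of the other genes of the IFT-B complex, to which Ift81 belongs, 16 were tested in CAD cells. In soma 1 was higher, Ift80 at 0.58 (adjusted p = 1.1e-05, edgeR quasi-likelihood), and none lower. In neurites 4 were higher and 3 lower, with Ttc30b at 0.66 and Ift80 at 0.61 among the former and Ift172 at -0.60 among the latter. The medians of 0.11 in soma and 0.20 in neurites were below the changes of Ift81. In N2A soma 2 of 15 were higher, Ttc30b at 0.94 and Ift46 at 0.47, and in N2A neurites none was called.

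Nonsense-mediated decay removes mRNAs with an early stop codon, and 15 of its factors and of the exon junction complex were tested. In CAD soma 4 were higher and none lower, with Upf3a at 1.01 (adjusted p = 7.7e-08, edgeR quasi-likelihood), Upf2 at 0.44 and Magoh at 0.33. In CAD neurites 3 were higher and 1 lower, with Upf3a at 0.83, Upf2 at 0.41 and Upf1, the central helicase, at -0.38. In N2A soma 3 were higher and 1 lower, with Upf3a at 0.71 and Rbm8a at 0.47 among the higher and Smg6, an endonuclease of the pathway, at -0.82. In N2A neurites Upf3a was higher (0.70) and Smg6 lower (-0.57). Upf3a was higher in both fractions of both lines. The list's medians were 0.15 and 0.18 in CAD soma and neurites and 0.09 and -0.05 in N2A soma and neurites.

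Of the mouse counterparts of 17 human genes that take up cryptic exons when TDP-43 is lost, 16 were tested in each line. In CAD soma 5 were higher and 4 lower, and in CAD neurites 2 were higher and 7 lower. Unc13a, a protein that readies synaptic vesicles for release, was higher in CAD soma (1.71, adjusted p = 2.7e-08, edgeR quasi-likelihood), CAD neurites (1.15), N2A soma (0.56) and N2A neurites (1.40). Celsr3 and Synj2 were higher in CAD soma, at 1.02 and 0.90, and Agrn was lower in CAD neurites, at -1.11. In N2A soma 3 were higher and 2 lower, with Kalrn at 0.74, Insr at -1.14 and Pfkp at -0.92, and in N2A neurites 3 were higher and 3 lower, with Celsr3 at 0.88 and Pfkp at -0.72. The medians of this list were -0.03 and -0.12 in CAD soma and neurites and -0.07 and -0.03 in N2A soma and neurites. In the transgene experiment no gene of the 4 lists was called, where no gene was called at all.

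The genes whose levels were most like those of a member were looked for over the 12 group means of the 3 experiments, among 13230 genes. The nearest to Usp15 was Sdccag8 (Pearson's r = 0.984), to Mib1 P2ry6 (r = 0.981), to Tecpr1 Gm43682 (r = 0.982), to Ift81 Cdc40 (r = 0.9897) and to Adnp2 Gemin5 (r = 0.979). The second was Setmar for Usp15, Etl4 for Tecpr1, Msh3 for Ift81 and Scaf11 for Adnp2. The 12 means share cell lines, fractions and scaling, and each gene was picked from 13230 for its r. The highest 1% of genes had an r above 0.843 to 0.909 with these members.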

How the data were processed

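RNA-seq libraries of 12 CAD, 12 N2A and 12 transgene CAD samples were used, grouped by their labels. Per the labels, poly(A) RNA libraries were made with a KAPA mRNA HyperPrep kit, with strandedness not given in the sources used here. Reads were trimmed by the authors using cutadapt and quantified with Salmon, as the submitters' processing notes say without versions. Each deposited file gives, per annotated transcript, the estimated count and the TPM that Salmon computed. Gene totals came from adding up estimated counts by GENCODE vM21 (GRCm38) and were then rounded. Tests were quasi-likelihood tests of edgeR 4.0.16 (R 4.3.3) after TMM scaling and filterByExpr by group, with Benjamini-Hochberg adjustment and an FDR of 0.01. One model per experiment held its 4 groups. LR changes were the interaction of compartment and genotype. Replicate numbers were taken to pair 2 groups where all 3 same-numbered pairs of libraries deviated together (r over 0.1). This held for wild-type and knockout N2A soma (0.122 to 0.549) and for neurites and soma of wild-type CAD cells (0.1002 to 0.230), and not for the other groups compared. Wild-type and knockout CAD soma came close, at 0.0894 to 0.482, with 2 of 3 pairs over the cut. Unless a replicate block is named, the fits did not use the replicate numbers, also for the paired groups. At most 0.129% of a library's counts had no gene in this annotation.

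Transcript usage was tested with the log of the gene count as offset, a test chosen after seeing the data, since diffSpliceDGE called unchanged transcripts in simulated data. In simulated CAD soma data the test used found 10 of 100 changes of 2-fold and 33 of 99 of 4-fold, so it misses many changes. DESeq2 1.42.0 was an alternative. Tables and figures used python 3.11.15, pandas 2.3.3, numpy 2.4.6 and matplotlib 3.10.9. The TG search in spliced transcripts was also chosen after seeing the data. The members and lists were chosen with earlier results of these data known. The text names all members, Tardbp and, of each list, up to 3 called genes with the largest changes in a comparison, and some genes this rule names are not reported here. Human libraries were not analysed here.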

Additional observations from a re-analysis of the deposited data

Results flagged for a closer look

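These values are listed since a test of the difference itself passed the threshold in edgeR. In the fit of 24 libraries the knockout change of Usp15 in CAD cells minus that in N2A cells was -1.15 on the log2 scale in soma and -1.51 in neurites, and that of Mib1 was -1.9995 and -1.88. In N2A cells themselves the changes of both genes lay between -0.18 and 0.01 and none was called. For Ift81 the knockout change was higher in CAD cells by 0.68 in soma and 0.97 in neurites. For Tecpr1, which fell in both lines, the difference was -0.85 in neurites and was lost when any of 8 libraries was left out.

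Within CAD cells, the change of Usp15 differed between neurites and soma by -0.55, a call that was lost in 11 of the 12 fits that left out a library.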

How the results depend on the processing

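In CAD soma the falls of Usp15, Mib1 and Tecpr1 and the rises of Ift81 and Adnp2 were called in all 13 alternatives, and in CAD neurites those of Usp15, Mib1, Tecpr1 and Ift81 in all 13 and that of Adnp2 in 10. Tecpr1 was called lower in all 13 in both fractions of N2A cells. The smallest rises of Ift81 in CAD cells were 0.70 in soma and 0.82 in neurites, and the smallest fall of Usp15 in CAD neurites was -1.38. In CAD soma the smallest falls of Tecpr1 (-1.02) and Usp15 (-0.78) were those with length-scaled counts. The other alternatives were leaving out each of 6 libraries, a fit of only the compartment compared, a replicate block, at least 10 counts in every library, no filter, scaling by the upper quartile and DESeq2. An FDR of 0.05 was tried for the counts. The cause of a change below was not tested unless the setting itself names it.

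Among member genes, the LR count in CAD cells (1 lower) was 2 with DESeq2, 2 with no filter and 0 with length-scaled counts, and 0 to 1 when a library was left out. The count of members higher in CAD neurites (2) was 1 with no filter and 1 to 2 when a library was left out. In N2A soma, members higher (0) became 1 at an FDR of 0.05 and with DESeq2 and 0 to 1 when a library was left out, and in N2A LR members lower (0) became 0 to 1. Near-zero changes that were not called also changed sign. In N2A soma, Usp15 was at 0.0308 with DESeq2, 0.0237 with no filter and -0.0359 to 0.124 when a library was left out, and Mib1 at -0.0880 with upper-quartile scaling, -0.0395 with at least 10 counts and -0.0265 with only the compartment. Ift81 in N2A neurites was at -0.0168 with length-scaled counts and -0.0106 to 0.171 when a library was left out. Spata13 ranged from -0.248 to 0.0913 in CAD soma and from -0.0678 to 0.399 in CAD neurites when a library was left out, and the difference of Adnp2 between the lines in soma from -0.0831 to 0.1001.

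In the transgene experiment, length-scaled counts gave -0.00202 for Adnp2, 0.0588 for Usp15, -0.0799 for Mib1 and -0.229 for Ift81 in soma and 0.00960 for Adnp2 in neurites. In soma, Tecpr1 was at 0.00417 with no filter, and Adnp2 at -3.34e-06 with at least 10 counts and -0.00198 with only the compartment. When a library was left out, the ranges in soma were -0.0389 to 0.0365 for Adnp2, -0.0278 to 0.0518 for Mib1 and -0.0824 to 0.0496 for Tecpr1, and in neurites -0.110 to 0.0332 for Adnp2, -0.0743 to 0.125 for Ift81 and -0.0589 to 0.139 for Mib1.

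Among member transcripts of CAD cells at an FDR of 0.05, those with higher usage in soma (1) became 4 and those with lower usage in neurites (1) became 3. Lower usage in soma (2) became 1 to 2 when a library was left out. In N2A soma, transcripts lower (1) were 2 at an FDR of 0.05, 0 with no filter and 0 to 0 when a library was left out, and transcripts higher (0) were 2 at an FDR of 0.05, 3 with DESeq2 and 0 to 1 when a library was left out. In N2A neurites transcripts higher (0) were 1 at an FDR of 0.05 and with DESeq2, and higher usage (0) was 2 at an FDR of 0.05.

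With a replicate block, CAD transcripts with lower usage in soma were 1 in place of 2, N2A transcripts lower in soma 0 in place of 1, and N2A LR changes over all genes 5 lower and 37 higher in place of 2 and 16. The block changed the count of called member genes in no comparison, and the usage of Usp15-209 (adjusted p = 0.0289 in soma and 0.0113 in neurites, edgeR), the level of Usp15-211 in CAD soma (0.0161) and that of Tecpr1-201 in N2A soma (0.0179) were not called with it. Over all transcripts, N2A soma had 142 lower and 840 higher with the block in place of 213 and 1300. In a fit of the N2A soma libraries alone, chosen after seeing the data, the block gave 2074 lower and 2489 higher genes, with a call for Adnp2 (0.22, adjusted p = 0.00974, edgeR) and Mib1 at -0.0272, and 0 called transcripts, where 12522 had an unadjusted p under 0.05. In LR of wild-type CAD cells, the block changed no call of a member.

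Over all genes, changes of LR in CAD cells (36 lower, 39 higher) were 100 and 70 at an FDR of 0.05, 145 and 79 with DESeq2 and 163 and 117 with no filter, 22 lower with length-scaled counts, and 16 to 55 lower when a library was left out. N2A soma (922 lower, 1955 higher) gave 1948 and 3307 at an FDR of 0.05, 1492 lower with upper-quartile scaling, 484 lower with length-scaled counts, 1208 higher with only the compartment, and 315 to 1101 lower and 1109 to 3673 higher when a library was left out. N2A neurites (913, 1161) gave 1839 and 1930 at an FDR of 0.05, 503 lower with length-scaled counts, and 520 to 676 lower and 712 to 984 higher when a library was left out. N2A LR (2, 16) gave 955 and 560 at an FDR of 0.05, 1288 and 365 with DESeq2, 9 and 136 with upper-quartile scaling, 449 and 474 with no filter, 18 and 114 with at least 10 counts, 10 higher with length-scaled counts, and 0 to 1048 lower and 4 to 231 higher when a library was left out. The transgene experiment (0 calls) gave 2 lower and 8 higher in neurites with DESeq2, with no filter 90 and 51 in soma, 57 and 46 in neurites and 22 and 31 for LR, and 0 to 1 lower in soma, 0 to 1 higher in neurites and 0 to 1 higher for LR when a library was left out. A search of introns for UG runs was not run, since no genome sequence was used here.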
